A study of Mus musculus with 9 samples.

Results

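The lysosome and autophagy genes described here are 48 named mouse genes, chosen by name: lysosomal membrane proteins, proteases, hydrolases of glycans and lipids, their cofactors, the lysosomal proton pump, and the machinery that builds the autophagosome. These genes and the wider list used below were chosen with earlier results of these data known. All 48 were among the 56691 genes of the count table, and 46 of them were among the 14151 genes with enough counts to be tested. Ctsk and Ctss, with 67 and 51 counts summed over all libraries, were not tested.

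RNA was sequenced from NIH/3T3 cells, an established mouse embryonic fibroblast line labelled as wild type, in 3 groups of 3 libraries. The groups were control cells, cells given 10 J/cm2 of UVA, and cells given the same UVA dose together with α-arbutin, a glucoside of hydroquinone used to lighten skin; the last group is called co-treated below. Among the samples used here, no group had α-arbutin without UVA. The dose of α-arbutin, its timing relative to UVA and the time of harvest were not given in the labels, nor whether the libraries of a group came from separate cultures, so the p-values measure only the spread between these libraries. The study asks whether α-arbutin counters photodamage, DNA damage and collagen loss in particular.

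Lysosomes are acidic organelles that digest material delivered by endocytosis and by autophagy. A rotary proton pump, the V-ATPase, acidifies the lumen, in which cathepsins cut proteins and glycosidases and lipases break down glycans and lipids. In autophagy a membrane sheet grows around cytoplasmic cargo, small ubiquitin-like proteins of the ATG8 family are attached to its lipids, cargo receptors bind them, and the closed vesicle fuses with the lysosome; in fibroblasts this route clears protein aggregates and damaged organelles, and lysosomal proteases also degrade internalised collagen.

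Libraries held between 16298348 and 20862894 counts, and mitochondrially encoded genes held 3.52 to 3.72% of counts in control, 3.87 to 3.89% in UVA and 3.76 to 4.01% in co-treated libraries. Fibroblast markers summed to between 12371 and 12736 CPM (TMM-scaled counts per 1e6 counts) in control, 9021 and 9288 in UVA and 8713 and 9280 in co-treated libraries. By the test given below, 7 of the 10 tested fibroblast markers were lower in UVA than in control cells and 1 was higher. Among all tested genes 14.6% were lower and 14.7% higher. Markers of macrophages and osteoclasts, cells rich in lysosomes, summed to 21.7 to 25.2 CPM in control, 24.6 to 30.4 in UVA and 23.1 to 25.7 in co-treated libraries. Of those 12 markers 5 were tested, and 2 were higher and 2 lower in UVA than in control cells, against the same shares of all tested genes. Ocstamp had no count in any library. In control, UVA and co-treated cells Cd14 averaged 13.3, 18.3 and 15.8 CPM, Cd68 3.05, 4.82 and 4.52 CPM, Lyz2 4.64, 2.45 and 2.90 CPM, Csf1r 0.769, 1.23 and 0.354 CPM and Ptprc 0.953, 0.136 and 0.254 CPM. The other 6, Adgre1, Itgam, Tyrobp, Fcer1g, Acp5 and Calcr, stayed at 5 counts or fewer in every library. The summed markers of epithelium, endothelium and pigment cells stayed at or below 5.92 CPM in every library. In bulk RNA, fewer cells of a type and less RNA per cell cannot be told apart, and every level below is relative to the library's total. The part of these shifts in the results below was not tested.

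In control cells the members spanned more than 3 orders of magnitude in FPKM, a level per gene length. Psap, the precursor of the saposins, which assist sphingolipid hydrolysis, was the most abundant at 373 ± 3.94 FPKM (SD, n = 3), which placed it 80th among the 14151 tested genes. Ctsl, cathepsin L, followed at 275 ± 6.96 FPKM, Lamp1, a heavily glycosylated protein of the lysosomal membrane, at 221 ± 3.68 FPKM, and the tetraspanin gene Cd63 at 162 ± 2.47 FPKM. Within the ATG8 family the order by length-scaled level was Gabarap at 89.2 ± 3.17, Gabarapl1 at 33.6 ± 1.42, Gabarapl2 at 18.5 ± 0.306, Map1lc3a at 12.7 ± 0.571 and Map1lc3b at 11.0 ± 0.369 FPKM. Genes of autophagosome initiation and of ATG8 conjugation ran from 3.31 ± 0.0862 FPKM for Atg7 to 15.6 ± 0.463 FPKM for Wipi1. At the bottom were Ctss at 0.360 ± 0.292, Ctsk at 0.253 ± 0.275 and Cln3 at 0.180 ± 0.0361 FPKM. Cathepsins K and S are best known from osteoclasts and antigen-presenting cells respectively. Cln3 overlaps Apobr on the other strand, which held 2676 counts against 223 for Cln3, and whether the counting used strand is not stated in the labels, so reads of the pair cannot be told apart.

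**Figure D1:**
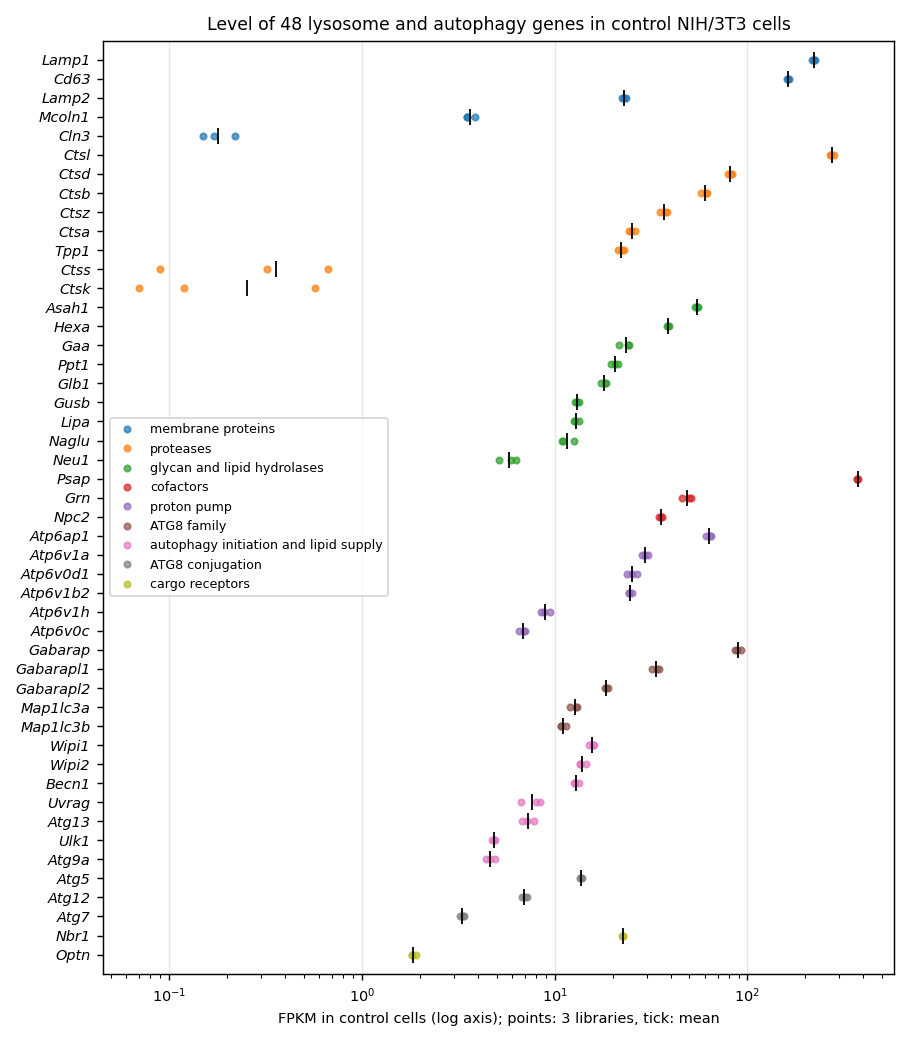
Level of each of the 48 genes in control cells, in FPKM on a log axis, ordered within 9 roles; points are the 3 control libraries and ticks their means. Psap and Ctsl lie highest, and Cln3, Ctss and Ctsk lie below 1 FPKM, with the control libraries of Ctss and Ctsk far apart.

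UVA was compared with control first. In irradiated cells the transcripts of 5 of 6 tested proteases rose, together with 3 hydrolases, Psap, Grn, Lamp1, Cd63 and 3 subunits of the proton pump, by at most 1.42-fold (Gusb). The lipase gene Lipa and the phosphoinositide-binding gene Wipi1 fell the most, to 0.66 and 0.72 of control. None of the 5 ATG8 genes passed the test. By edgeR's quasi-likelihood test with Benjamini-Hochberg adjustment over all tested genes (adjusted p below 0.05), 18 of the 46 tested members were higher and 6 lower, while 22 were not called (the 6 became 3 with DESeq2 and without control replicate 2, control replicate 3 or UVA replicate 3); among all tested genes 14.7% were called higher and 14.6% lower. The members' shares were thus 39.1% higher and 13.0% lower. Most members are well expressed, and among the 7549 genes averaging at least 20 CPM 21.1% were called higher and 18.7% lower, against 18 and 5 of the 43 members at that level. The median log2 fold change of the 46 members was 0.09, with a range of -0.59 to 0.51, and that of all tested genes 0.00. Groups did not overlap for 21 members that were higher and 7 that were lower in every UVA library, where 21.1% and 20.9% of all tested genes behaved so. Of the 8 tested members that overlap a gene with at least 10% as many counts, 3 were higher and 1 lower, and of the other 38, 15 and 5. With limma on log2(TPM + 1) the members' calls were 13 higher and 6 lower, and the calls over all genes 1182 higher and 2287 lower, against 2078 and 2064 in the main test.

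**Figure D2:**
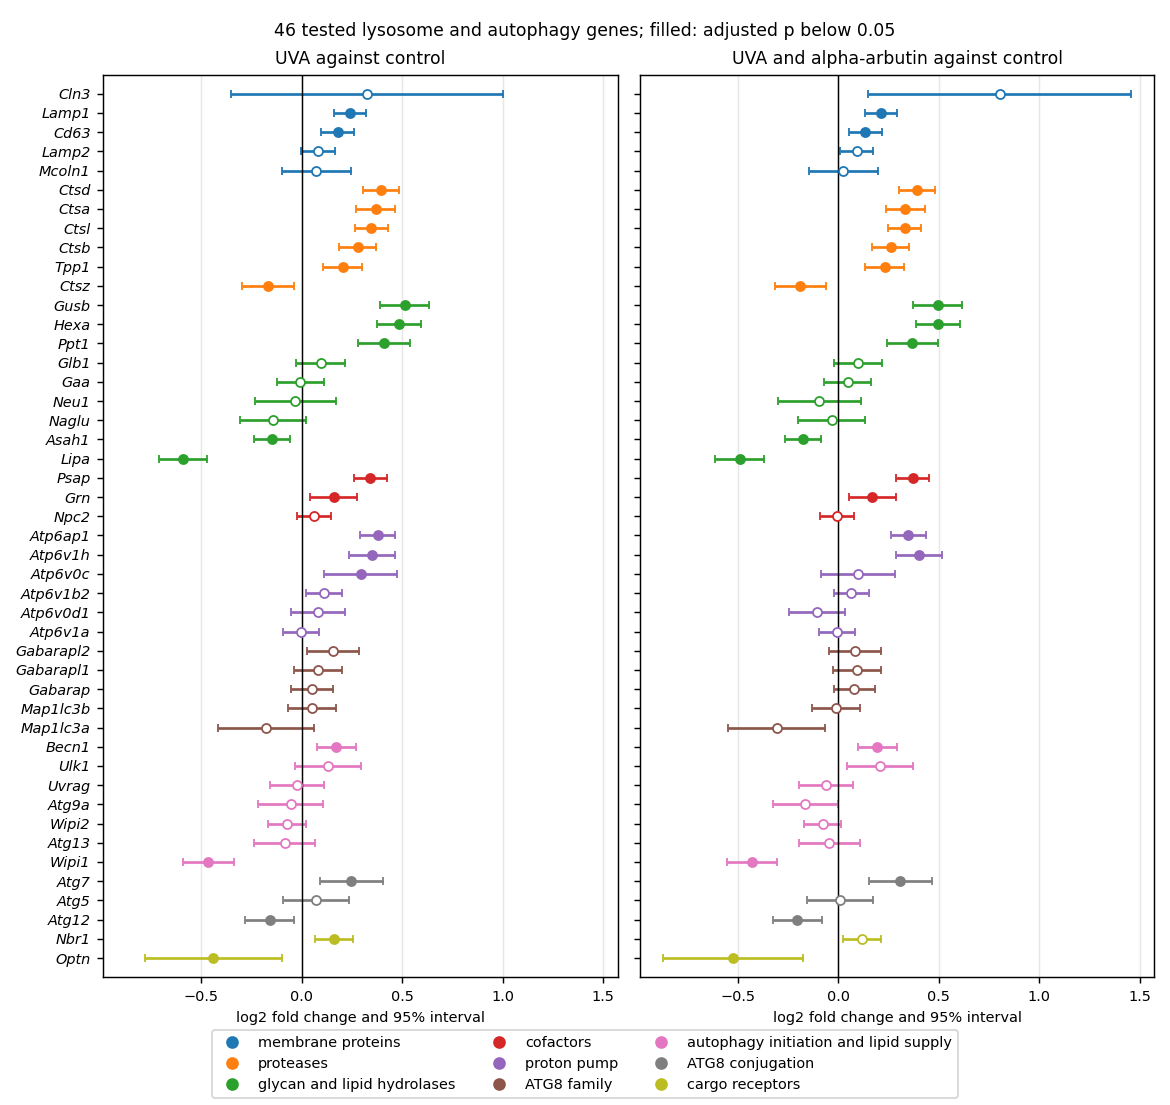
Log2 fold changes of the 46 tested genes with 95% intervals, UVA against control on the left and co-treated against control on the right; filled points have an adjusted p below 0.05 and colours give the role. Most proteases lie to the right of 0 on both sides, and Lipa, Wipi1 and Optn lie to the left. The ATG8 genes lie near 0 apart from Map1lc3a, which lies to the left, further in the right panel, and is filled in neither. Both panels use the same control libraries.

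Among the proteases, Ctsl (ENSMUSG00000021477, chr13:64507151-64518704 on mm39) encodes the abundant cysteine protease cathepsin L. Its level was 1824, 1739.9 and 1764 CPM in the control libraries, 2128, 2278 and 2358 CPM in the UVA libraries and 2114, 2223 and 2360.2 CPM in the co-treated libraries, so every irradiated library lay above every control library. The log2 fold change of UVA against control was 0.34 ± 0.04 (SE; adjusted p = 1.01e-07). Ctsd (ENSMUSG00000007891, chr7:141929648-141941775), the main aspartic protease of the lysosome, measured 195, 185 and 192 CPM in the control libraries, 239, 248 and 265 CPM in the UVA libraries and 247, 258 and 246 CPM in the co-treated libraries. This was the protease with the highest fold change (0.39 ± 0.04, adjusted p = 3.45e-08), and again no UVA value reached down to a control value. Ctsa (ENSMUSG00000017760, chr2:164674793-164682952), a carboxypeptidase that also protects β-galactosidase and neuraminidase 1 in a complex, stood at 122, 114 and 117 CPM in the control libraries, 149, 147 and 159.7 CPM in the UVA libraries and 142, 151 and 151 CPM in the co-treated libraries. Irradiated and control libraries did not overlap, and the UVA rise was 0.37 ± 0.05 (adjusted p = 4.83e-07).

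Ctsb (ENSMUSG00000021939, chr14:63359911-63383372) encodes cathepsin B, a cysteine protease with both endopeptidase and exopeptidase activity. Its level was 365, 345 and 373 CPM in the control libraries, 405, 442 and 467 CPM in the UVA libraries and 421, 443 and 433 CPM in the co-treated libraries. UVA and control did not overlap and the log2 fold change was 0.28 ± 0.04 (adjusted p = 1.79e-05); the overlapping gene Fdft1 changed in the other direction, at -0.13 (adjusted p = 0.0344). Tpp1, the tripeptidyl peptidase lost in a childhood form of neuronal ceroid lipofuscinosis, rose by less, at 0.20 ± 0.05 (adjusted p = 0.00152). Ctsz, a carboxypeptidase of the cathepsin family, was the only tested protease of the list to fall, at -0.17 ± 0.06 (adjusted p = 0.042). That call was lost without control replicate 2 or 3 or without any 1 of the UVA libraries (adjusted p between 0.0662 and 0.173). The 2 untested proteases were close to 0 in all groups: Ctsk lay between 0.112 and 1.11 CPM and Ctss between 0.0554 and 0.898 CPM.

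The hydrolases of glycans and lipids moved in both directions, 3 up and 2 down of 9 (14.7% and 14.6% of all tested genes), with a median log2 fold change of -0.01. Gusb (ENSMUSG00000025534, chr5:130017852-130031890), the β-glucuronidase that trims glycosaminoglycans, measured 58.7, 57.6 and 60.5 CPM in the control libraries, 77.7, 84.4 and 89.9 CPM in the UVA libraries and 76.5, 85.0 and 87.5 CPM in the co-treated libraries. It had the highest fold change of all members (0.51 ± 0.06, adjusted p = 1.13e-07), and the irradiated libraries all lay above the controls. Hexa (ENSMUSG00000025232, chr9:59446823-59472392), the α subunit of β-hexosaminidase, which removes a sugar from GM2 ganglioside, measured 77.3, 76.3 and 76.8 CPM in the control libraries, 102, 102 and 117 CPM in the UVA libraries and 105, 109.7 and 110.2 CPM in the co-treated libraries. The controls lay close together and every irradiated library lay above them (0.48 ± 0.05, adjusted p = 4.09e-08). Ppt1 (ENSMUSG00000028657, chr4:122730035-122752968), which removes palmitate from proteins, measured 77.9, 74.8 and 71.9 CPM in the control libraries, 96.1, 93.2 and 108 CPM in the UVA libraries and 88.8, 94.0 and 107 CPM in the co-treated libraries. Its rise of 0.41 ± 0.06 (adjusted p = 8.74e-06) came without overlap; Cap1, which overlaps Ppt1, rose as well, at 0.30 (adjusted p = 1.21e-06).

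Lipa (ENSMUSG00000024781, chr19:34469718-34504874) encodes lysosomal acid lipase, which frees cholesterol and fatty acids from lipoprotein cargo. Its level was 89.9, 84.8 and 86.3 CPM in the control libraries, 54.0, 59.4 and 59.7 CPM in the UVA libraries and 67.5, 58.3 and 60.0 CPM in the co-treated libraries. All 6 irradiated libraries lay below all controls, and the fall of -0.59 ± 0.06 under UVA was the deepest of any member (adjusted p = 5.65e-09). Asah1, the acid ceramidase gene, fell by less, at -0.15 ± 0.04 (adjusted p = 0.0117); without control replicate 1 or UVA replicate 3 its adjusted p was 0.0518 and 0.102. The α-glucosidase gene Gaa (-0.01 ± 0.06), the β-galactosidase gene Glb1 (0.09 ± 0.06), the heparan sulfate hydrolase gene Naglu (-0.14 ± 0.08) and the sialidase gene Neu1 (-0.03 ± 0.10) were not called.

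Of the 3 cofactor genes, Psap (ENSMUSG00000004207, chr10:60113449-60138376) measured 1015, 1028 and 1011 CPM in the control libraries, 1205, 1302 and 1361 CPM in the UVA libraries and 1243, 1356 and 1346 CPM in the co-treated libraries. The controls lay close together, below every irradiated library, and the UVA rise was 0.34 ± 0.04 (adjusted p = 1.65e-07). Grn, progranulin, a secreted precursor whose granulin peptides are released in the lysosome, measured 171, 157 and 177 CPM in the control libraries, 168, 193 and 203 CPM in the UVA libraries and 175, 197 and 196 CPM in the co-treated libraries. Here UVA replicate 1 lay among the controls, and the call at 0.16 ± 0.06 (adjusted p = 0.0367) was lost without control replicate 1 or 2 or UVA replicate 2 or 3 (adjusted p between 0.0704 and 0.227). Npc2, the soluble cholesterol carrier, was at 0.06 ± 0.04 and was not called.

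Among the membrane proteins, Lamp1 (ENSMUSG00000031447, chr8:13209161-13225338) measured 586, 578 and 600.4 CPM in the control libraries, 677, 688 and 719 CPM in the UVA libraries and 651, 684 and 710.1 CPM in the co-treated libraries. UVA and control values did not overlap (0.24 ± 0.04, adjusted p = 1.68e-05). Cd63 (ENSMUSG00000025351, chr10:128736858-128748691), a tetraspanin of late endosomes, measured 593, 587 and 607 CPM in the control libraries, 635, 704 and 682 CPM in the UVA libraries and 633, 664 and 666 CPM in the co-treated libraries. Its UVA rise was small but free of overlap (0.18 ± 0.04, adjusted p = 0.000861); a copy named Cd63-ps, with which it may share reads, held 8.81% as many counts as Cd63 and was at 0.16 (adjusted p = 0.0604). Lamp2, which also serves chaperone-mediated autophagy, was at 0.08 ± 0.04, the calcium channel gene Mcoln1 at 0.07 ± 0.08 and Cln3 at 0.32 ± 0.33; none of these 3 was called.

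**Figure D3:**
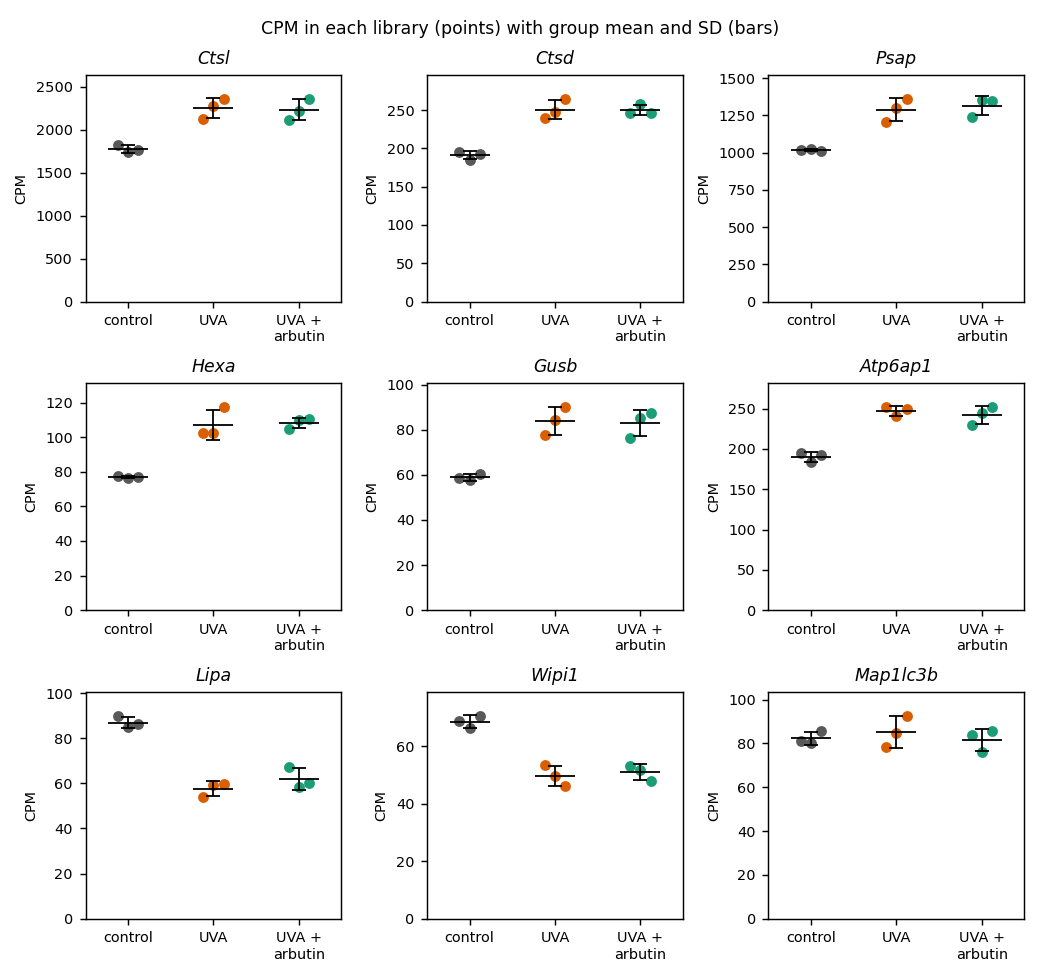
Level of 9 genes in every library, in CPM from 0, as points with the group mean and SD as bars. UVA and co-treated libraries lie above the controls for Ctsl, Ctsd, Psap, Hexa, Gusb and Atp6ap1, and below them for Lipa and Wipi1. For Map1lc3b the groups overlap.

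The proton pump joins a cytosolic V1 part, which hydrolyses ATP, to a V0 part in the membrane, through which protons pass. Of its 6 genes among the members, 3 rose and none fell (median 0.20), against 14.7% and 14.6% of all tested genes. Atp6ap1 (ENSMUSG00000019087, chrX:73340703-73348327), an accessory subunit of V0, measured 195, 184 and 192 CPM in the control libraries, 252, 240.5 and 249 CPM in the UVA libraries and 230.1, 245 and 252 CPM in the co-treated libraries. Atp6v1h (ENSMUSG00000033793, chr1:5140241-5232752), subunit H of V1, measured 91.6, 82.4 and 86.2 CPM in the control libraries, 113, 117 and 102 CPM in the UVA libraries and 108, 114 and 121 CPM in the co-treated libraries. Neither overlapped between UVA and control, at 0.38 ± 0.04 (adjusted p = 6.31e-08) and 0.35 ± 0.06 (adjusted p = 1.6e-05).

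Atp6v0c (ENSMUSG00000024121, chr17:24382840-24388676), the subunit that forms most of the rotating ring, measured 23.7, 22.1 and 23.6 CPM in the control libraries, 24.8, 30.6 and 29.6 CPM in the UVA libraries and 22.3, 27.3 and 24.4 CPM in the co-treated libraries. The UVA values lay above the controls and the difference was 0.29 ± 0.09 (adjusted p = 0.0121), with the call lost without control replicate 2 or UVA replicate 2 or 3 (adjusted p between 0.0546 and 0.0752). Reads of this gene may be shared with its copy Atp6v0c-ps2, which held 5252 counts, 128% of those of Atp6v0c, and was itself at 0.42 ± 0.08 (adjusted p = 0.000192), so the split between them is uncertain. Atp6v1b2, a B subunit of V1, was at 0.11 ± 0.04 (adjusted p = 0.0519), just outside the threshold, and was called without UVA replicate 3 (adjusted p = 0.0427). Atp6v0d1 was at 0.08 ± 0.07 and the catalytic subunit gene Atp6v1a at 0.00 ± 0.04, neither called.

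A wider list of pump genes, drawn from pathway knowledge with earlier results of these data known, held 16 further tested genes. Set against the same 14.7% and 14.6%, or 21.1% and 18.7% of genes averaging at least 20 CPM, 9 rose and none fell (median 0.22). The 3 with the smallest p were the V1 stalk subunits Atp6v1d (0.38 ± 0.05, adjusted p = 2.64e-06) and Atp6v1g1 (0.34 ± 0.05, adjusted p = 5.65e-06) and the assembly factor gene Tmem199 (0.38 ± 0.07, adjusted p = 4.88e-05).

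**Figure D4:**
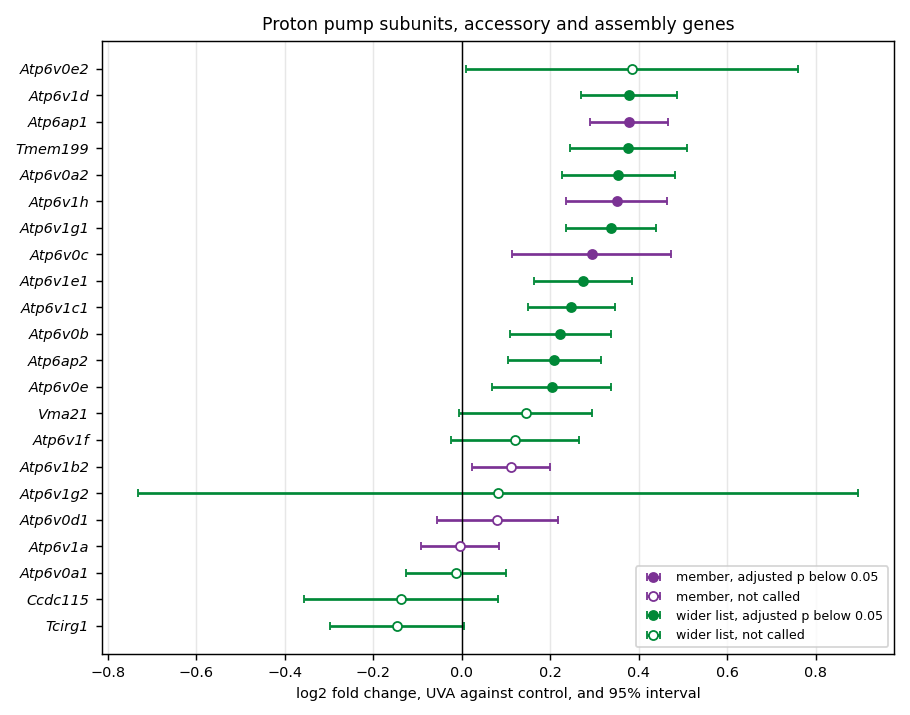
Log2 fold changes of UVA against control with 95% intervals for the 22 tested proton pump genes, 6 of them members and 16 from the wider list; filled points have an adjusted p below 0.05. The 12 filled points all lie to the right of 0, and Atp6v1a, the catalytic subunit gene, lies at 0.

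Of the autophagy genes, the ATG8 family had no call among 5, where 14.7% of all tested genes were called higher and 14.6% lower. A family of 5 genes is too small to set apart from those shares. ATG8 proteins are conjugated to phosphatidylethanolamine and are the usual marker of autophagosomes at the protein level. Map1lc3b, the LC3B gene, measured 81.0, 80.2 and 85.8 CPM in the control libraries, 78.3, 84.8 and 92.5 CPM in the UVA libraries and 83.8, 76.0 and 85.4 CPM in the co-treated libraries. UVA and control overlapped, and the 95% interval of the log2 difference ran from -0.07 to 0.17. Map1lc3a, the LC3A gene, measured 15.2, 14.1 and 15.5 CPM in the control libraries, 12.9, 15.8 and 11.2 CPM in the UVA libraries and 13.6, 11.0 and 11.7 CPM in the co-treated libraries; its control values lay within the UVA spread, and the interval ran from -0.42 to 0.06.

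Gabarap measured 158, 163 and 170.4 CPM in the control libraries, 161, 177 and 171 CPM in the UVA libraries and 159.5, 175 and 184 CPM in the co-treated libraries, with an interval from -0.05 to 0.15. Gabarapl1 measured 64.2, 69.9 and 68.1 CPM in the control libraries, 68.4, 67.9 and 77.5 CPM in the UVA libraries and 68.9, 73.8 and 72.8 CPM in the co-treated libraries, with an interval from -0.04 to 0.20. For both genes UVA and control overlapped. Gabarapl2 measured 43.5, 42.7 and 42.3 CPM in the control libraries, 44.6, 50.4 and 48.2 CPM in the UVA libraries and 43.4, 46.5 and 46.2 CPM in the co-treated libraries. For Gabarapl2 every UVA library lay above the controls, but the test was not passed (interval 0.03 to 0.28, adjusted p = 0.0625); without UVA replicate 1 it was (adjusted p = 0.0263). These GABARAP genes act with the LC3 genes in the same conjugation step.

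Of the 7 genes of initiation and lipid supply, 1 rose and 1 fell, shares close to the 14.7% and 14.6% of all tested genes. Becn1 (ENSMUSG00000035086, chr11:101176778-101193112), beclin 1 of the lipid kinase complex that marks the forming membrane, measured 89.8, 93.4 and 88.6 CPM in the control libraries, 101, 101 and 104 CPM in the UVA libraries and 102, 101 and 108 CPM in the co-treated libraries. The UVA libraries lay above the controls (0.17 ± 0.05, adjusted p = 0.00717; 0.0784 with limma on log2(TPM + 1)). Wipi1 (ENSMUSG00000041895, chr11:109464157-109502793), which binds the lipid that this kinase makes, measured 68.9, 66.3 and 70.6 CPM in the control libraries, 53.4, 49.7 and 46.2 CPM in the UVA libraries and 53.3, 51.9 and 47.8 CPM in the co-treated libraries. It fell without overlap (-0.46 ± 0.06, adjusted p = 8.61e-07). The other 5 were not called: the kinase gene Ulk1 (0.13 ± 0.08), its partner Atg13 (-0.09 ± 0.07), the beclin 1 partner Uvrag (-0.02 ± 0.06), Wipi2 (-0.07 ± 0.05) and the lipid scramblase gene Atg9a (-0.06 ± 0.08).

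In the conjugation system, Atg7, the E1-like enzyme that activates both ATG8 proteins and ATG12, measured 23.5, 23.1 and 22.4 CPM in the control libraries, 25.8, 27.6 and 28.3 CPM in the UVA libraries and 27.8, 29.7 and 27.9 CPM in the co-treated libraries. Atg12, the ubiquitin-like protein that is joined to ATG5, measured 54.8, 53.7 and 51.9 CPM in the control libraries, 49.8, 45.8 and 47.9 CPM in the UVA libraries and 45.7, 45.3 and 48.2 CPM in the co-treated libraries. The 2 moved in opposite directions under UVA, Atg7 at 0.25 ± 0.08 (adjusted p = 0.0146) and Atg12 at -0.16 ± 0.06 (adjusted p = 0.0414), each without overlap. The Atg7 call was lost without control replicate 3 or UVA replicate 3 (adjusted p = 0.0638 to 0.0689), and the Atg12 call without any 1 control or without UVA replicate 2 or 3 (0.0555 to 0.147). Atg5 was at 0.07 ± 0.08 and was not called.

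Nbr1, a receptor that links ubiquitinated cargo to ATG8 proteins, measured 155, 152 and 156 CPM in the control libraries, 170.0, 164 and 183 CPM in the UVA libraries and 166, 161 and 175 CPM in the co-treated libraries. Every UVA library lay above the controls, and the rise was 0.16 ± 0.05 (adjusted p = 0.0097; 0.0919 without UVA replicate 3). Optn, optineurin, a receptor for damaged mitochondria and bacteria, measured 6.74, 7.07 and 6.80 CPM in the control libraries, 3.82, 4.82 and 6.45 CPM in the UVA libraries and 5.06, 4.29 and 4.98 CPM in the co-treated libraries. Its counts were low, UVA replicate 3 lay just under the controls and the other UVA libraries further below, and the call at -0.44 ± 0.17 (adjusted p = 0.0471) was lost without any 1 control or without UVA replicate 1 or 2 (adjusted p between 0.0835 and 0.256).

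Many lysosomal genes carry E-boxes of the CLEAR kind, the site bound by TFEB and its relatives, close to their start. RefSeq promoter windows on GRCm38.p6, 250 bases before to 50 after each start, were found for 41 of the 48 members (47 windows) and were searched on both strands. The E-box CACGTG lay in 13 of 47 member windows (27.7%) and in 7.15% of all 32851 windows. The longer CLEAR core TCACGTGA, which contains the E-box, lay in 6 (12.8%) against 0.974% of all windows, and a 10-base palindrome that extends this core by 1 base on either side in 1 (2.13%, that of Cln3) against 0.326%. The AP-1 motif TGANTCA lay in 3 (6.38%), those of Glb1, Neu1 and Psap, against 7.81% of all windows. A match is a match of letters and not evidence of binding.

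Stretches of 80 bases upstream of the start are printed for 7 genes, because they show the E-box in the member with the most copies (Lamp1), in 3 proteases that rose (Ctsa, Ctsd, Ctsl) and in 3 genes that were not called (Mcoln1, Cln3, Atp6v1a). Each is given 5′ to 3′ on the gene's strand, from chr2:164833693-164833772 (+), chr7:142387883-142387962 (-), chr13:64370691-64370770 (-), chr8:13159081-13159160 (+), chr8:3500437-3500516 (+), chr7:126583315-126583394 (-) and chr16:44139348-44139427 (-) in this order. Capitals mark the CLEAR core where it is present and otherwise the E-box.
Ctsa: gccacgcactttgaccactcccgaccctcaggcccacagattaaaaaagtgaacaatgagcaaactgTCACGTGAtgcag
Ctsd: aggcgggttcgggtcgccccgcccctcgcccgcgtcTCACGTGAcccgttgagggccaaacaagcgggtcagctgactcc
Ctsl: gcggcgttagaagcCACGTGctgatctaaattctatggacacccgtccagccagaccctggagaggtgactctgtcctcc
Lamp1: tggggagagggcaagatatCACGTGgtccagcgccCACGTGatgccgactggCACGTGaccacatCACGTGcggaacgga
Mcoln1: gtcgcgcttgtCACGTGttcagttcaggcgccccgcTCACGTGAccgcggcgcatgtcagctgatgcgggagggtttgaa
Cln3: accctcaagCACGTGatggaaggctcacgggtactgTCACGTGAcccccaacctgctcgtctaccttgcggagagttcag
Atp6v1a: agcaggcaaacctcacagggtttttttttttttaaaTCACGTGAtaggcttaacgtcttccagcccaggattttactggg
Lamp1 held 4 E-boxes in these 80 bases, Mcoln1 and Cln3 held 2 each, and the stretches of Ctsa, Ctsd, Ctsl and Atp6v1a held 1 each.

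Set against the UVA response, the 13 tested members with an E-box in the window had 5 higher and 0 lower calls and a median log2 fold change of 0.09, and the 26 tested members with a window and no E-box had 10 higher and 4 lower calls and a median of 0.08. The 6 with the CLEAR core had 2 higher and 0 lower calls and a median of 0.20, and the 33 without it 13 and 4 calls and a median of 0.08. These are counts without a test, and 14.7% of all tested genes were called higher and 14.6% lower.

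α-Arbutin was then compared within irradiated cells. No member was called between co-treated and UVA cells: 0 of 46 were higher and 0 lower by edgeR, where 0.0353% of all tested genes (5 of 14151) were called in either direction, 0.0283% higher and 0.00707% lower. DESeq2 called 0 members as well. The median log2 difference was -0.02, against 0.00 over all tested genes, and 2 members, both lower in co-treated cells, had an unadjusted p below 0.05, as did 957 of all genes. The 43 members averaging at least 20 CPM had estimates between -0.20 and 0.11, and their 95% intervals all lay between -0.38 and 0.28. Differences within a gene's own interval remain compatible with these libraries.

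The pair with unadjusted p below 0.05 belonged to the proton pump's V0 part: Atp6v0c at -0.20 ± 0.09 (adjusted p = 0.701) and Atp6v0d1 at -0.19 ± 0.07 (adjusted p = 0.627). Atp6v0d1, subunit d of V0, whose values are shown although it was not called, a choice made after they were seen, measured 47.8, 42.5 and 45.1 CPM in the control libraries, 45.3, 46.5 and 51.2 CPM in the UVA libraries and 40.1, 44.6 and 41.1 CPM in the co-treated libraries, so all co-treated values lay below all UVA values, though control values lay among both. Groups did not overlap for 3 members, Atp6v0d1 and Npc2 below and Cln3 above UVA, where 10.8% of all tested genes did not overlap, 5.31% below and 5.45% above. Cln3 had the widest interval, -0.16 to 1.11, and lay from 1.05 to 1.49 CPM in UVA and 1.62 to 2.14 CPM in co-treated libraries.

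For 7 of the members called under UVA, taken as examples, the co-treated against UVA intervals were -0.14 to 0.10 for Gusb, -0.09 to 0.12 for Hexa, -0.09 to 0.08 for Ctsd, -0.10 to 0.07 for Ctsl, -0.06 to 0.11 for Psap, -0.09 to 0.16 for Wipi1 and -0.02 to 0.23 for Lipa. All of them contained 0, while the interval of Atp6v0c, also called under UVA, lay below 0 before adjustment. Lipa had the largest estimate of these 7 (0.10 ± 0.06, adjusted p = 0.81), and its co-treated replicates 1 and 3 lay above all UVA libraries while replicate 2 lay among them.

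**Figure D5:**
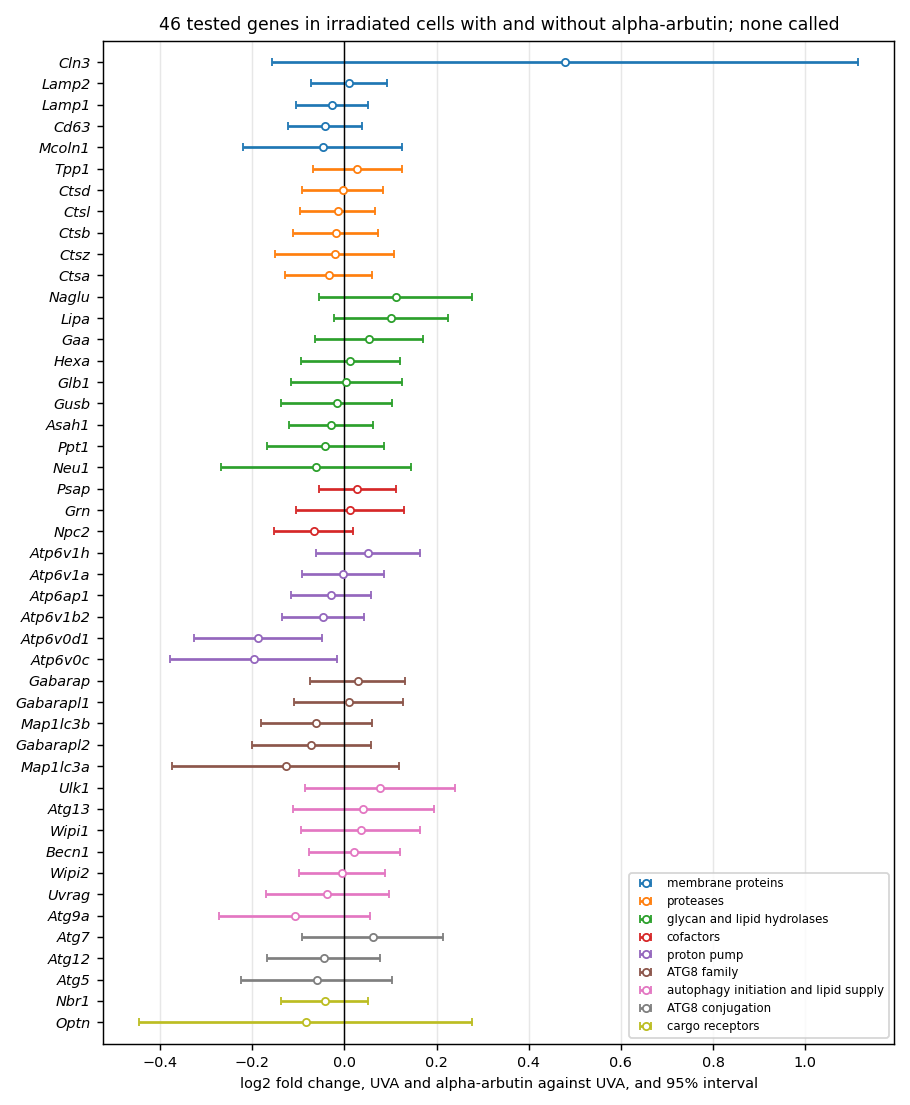
Log2 differences between co-treated and UVA cells for the 46 tested genes, with 95% intervals, coloured by role; no gene has an adjusted p below 0.05. Estimates lie near 0 apart from Cln3, whose interval is wide, and the intervals of Atp6v0c and Atp6v0d1 lie below 0 before adjustment.

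Co-treated cells were also set against control. Of the 46 tested members 16 were higher (34.8%) and 6 lower (13.0%), where 13.0% and 12.9% of all tested genes were called in each direction. The median log2 fold change was 0.09, against 0.00 over all tested genes. The shares of all genes averaging at least 20 CPM are not given for this comparison. This comparison shares its controls with the UVA comparison, so the values are given side by side only. Ctsd was at 0.39 ± 0.04 in co-treated and 0.39 ± 0.04 in UVA cells, Hexa at 0.50 ± 0.05 and 0.48 ± 0.05, Gusb at 0.49 ± 0.06 and 0.51 ± 0.06, Psap at 0.37 ± 0.04 and 0.34 ± 0.04, Lipa at -0.49 ± 0.06 and -0.59 ± 0.06, and Wipi1 at -0.43 ± 0.06 and -0.46 ± 0.06. The calls of 2 genes in the UVA comparison were not made here: Atp6v0c was at 0.10 ± 0.09 (adjusted p = 0.476) and Nbr1 at 0.12 ± 0.05 (adjusted p = 0.0662). The direct comparison of co-treated with UVA cells called neither. Cln3 was at 0.80 ± 0.32 (adjusted p = 0.0645), Map1lc3a at -0.31 ± 0.12 (adjusted p = 0.055) and Ulk1 at 0.21 ± 0.08 (adjusted p = 0.0542), just outside the threshold. Nbr1, Map1lc3a and Ulk1 passed when only these groups were fitted (adjusted p = 0.0396, 0.0298 and 0.0306). They also passed without UVA replicate 3 (0.0435, 0.0343 and 0.0305), which is in neither group but enters the count filter, the scaling and the shared spread.

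The wider list of lysosome and autophagy genes held 160 further tested genes. Under UVA 42 of them were higher (26.2%) and 21 lower (13.1%), against 14.7% and 14.6% of all tested genes, with a median of 0.05. Among all genes averaging at least 20 CPM the shares were 21.1% and 18.7%, and the wider list was not split by level. With limma on log2(TPM + 1) the split was 21 higher and 26 lower of 160, against 1182 and 2287 of all 14151 tested genes. In co-treated against control cells 43 were higher (26.9%) and 16 lower (10.0%), against 13.0% and 12.9% of all tested genes. Between co-treated and UVA cells none was called in either direction by edgeR, where 0.0353% of all tested genes were. Of the wider list 12 had an unadjusted p below 0.05 there, as did 957 of all 14151 tested genes.

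Of 13 further tested cargo receptor genes 3 rose and 4 fell under UVA. The adaptor gene Sqstm1, p62, rose at 0.31 ± 0.05 (adjusted p = 3.82e-06). The ferritin receptor gene Ncoa4 (0.28 ± 0.06) and the endoplasmic reticulum receptor gene Tex264 (0.17 ± 0.06, adjusted p = 0.0394, but 0.0589 with DESeq2) rose as well. Bnip3, a mitophagy receptor induced by hypoxia, fell the most of the wider list shown here (-1.28 ± 0.09, adjusted p = 1.07e-11), and Retreg1 (-0.31 ± 0.08) and Calcoco1 (-0.22 ± 0.07), receptors for the endoplasmic reticulum, fell as well. Of 16 further genes of initiation and lipid supply 1 rose and 4 fell. The scaffold gene Rb1cc1 (-0.19 ± 0.05), the membrane protein gene Vmp1 (-0.18 ± 0.05) and the omegasome gene Zfyve1 (-0.25 ± 0.08) were among those that fell. Wdr45 (0.36 ± 0.13, adjusted p = 0.0398, but 0.0715 with DESeq2), a relative of Wipi1, rose. None of the 7 further conjugation genes was called. The counts of these roles stand against 14.7% higher and 14.6% lower among all tested genes.

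Among further hydrolases 6 rose and 5 fell of 25; this count and those of the other roles below stand against 14.7% higher and 14.6% lower among all tested genes. The α-mannosidase gene Man2b1 (0.44 ± 0.06), the sulfatase gene Arsb (0.21 ± 0.04) and the galactosylceramidase gene Galc (0.23 ± 0.06) rose, and the sulfatide sulfatase gene Arsa (-0.35 ± 0.06) and the phospholipase gene Pla2g15 (-0.53 ± 0.11) were among those that fell. Of 7 further proteases Dpp7 rose (0.28 ± 0.08) and Scpep1 (-0.25 ± 0.04), Cpq (-0.32 ± 0.06) and Prcp (-0.17 ± 0.05) fell. The cholesterol exporter gene Npc1 rose (0.24 ± 0.07) and the channel gene Tpcn2 fell (-0.35 ± 0.11) of 18 membrane genes, and the cofactor genes Creg1 (0.27 ± 0.08) and Cstb (0.20 ± 0.05), the latter an inhibitor of cathepsins, rose of 5.

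In mannose 6-phosphate sorting, which sends hydrolases to the lysosome, 5 of 12 rose and 1 fell. Nagpa, which uncovers the sorting tag, was at 0.53 ± 0.11, Gnptab, which adds it, at 0.17 ± 0.05, the retromer gene Vps29 at 0.16 ± 0.05 and the adaptor gene Gga3 at -0.32 ± 0.09. Of 18 fusion and tethering genes 5 rose, among them the HOPS tether genes Vps33a (0.23 ± 0.05) and Vps41 (0.20 ± 0.05) and the SNARE gene Snap29 (0.23 ± 0.06), and Vps39, also of HOPS, fell (-0.32 ± 0.08). Of 23 genes of nutrient sensing at the lysosome 9 rose and 2 fell: the Rag GTPase gene Rragc (0.26 ± 0.04), the mTORC1 subunit gene Rptor (0.36 ± 0.05) and Akt1s1 (0.35 ± 0.06), an mTORC1 inhibitor, were among those that rose, and the GATOR1 gene Depdc5 (-0.31 ± 0.06) and the sestrin gene Sesn1 (-0.23 ± 0.07) fell. Calls of the wider list that another method or leaving out 1 library ended are given with the processing alternatives.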

How the data were processed

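The authors deposited 1 table with a raw count and an FPKM value per gene and library, per the file headers; the build was mm39, and HTSeq 0.6.1, HISAT2 2.2.1, cutadapt 1.9.1 and bcl2fastq 2.20.0.422 are listed without a role, per the submitters' processing notes. The 510219 deposited FPKM values were recovered from counts, exonic sizes and library totals within 0.01. Per the labels' protocols, 2 ug of total RNA went into each library. Columns were assigned by name: 2 of the 3 prefixes match sample titles, MOCK being the titles whose treatment label gives UVA, and the remaining prefix NC was taken as control.

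Deposited counts were tested with edgeR 4.0.16 in R 4.3.3 (filterByExpr, TMM, quasi-likelihood F-test, two-sided) on all 9 libraries with group as the only term, with calls at 0.05 after Benjamini-Hochberg adjustment over 14151 genes; the code was tested on simulated data. Levels in the text are TMM-scaled CPM or deposited FPKM; standard errors come from the fit and intervals are 95%. Alternatives were other scalings, no count filter, DESeq2 1.42.0, limma 3.58.1 on log2(FPKM + 1) and log2(TPM + 1), only the groups compared, a replicate block, and leaving out each library. Members and lists were chosen with earlier results of these data known. Values in every library were printed for called members, up to 4 a role by smallest p, and for the ATG8 genes; of the wider list, up to 3 called genes a role and direction by smallest p, of which 1 is not reported here. No pair of libraries of a group agreed within sampling noise. Promoter windows are RefSeq's on GRCm38.p6 and were joined to the counts by gene name only.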

Additional observations from a re-analysis of the deposited data

How the results depend on the processing

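Each result was recomputed under 17 alternatives. No fold change of a member reversed where it was called, and of the counts of calls 198 stayed within 1.5 times the main value and 6 did not. The 6 lower members under UVA became 3 with DESeq2, and between 3 and 7 when 1 library was left out (3 without control replicate 2, control replicate 3 or UVA replicate 3). With limma on log2(TPM + 1) the wider list gave 21 higher genes under UVA in place of 42. In co-treated against control cells it gave 28 in place of 43. Over all tested genes that method called 1182 higher under UVA in place of 2078, and 1252 in co-treated against control cells in place of 1834. The cause was not tested. Of the 18 members higher under UVA 13 were called in every setting, and of the 6 lower, 2; in co-treated against control cells it was 14 of 16 and 3 of 6. UVA calls lost by method were those of Ctsz, Grn, Atg12 and Optn with DESeq2 (adjusted p = 0.0561 to 0.0719), of Ctsz and Atg12 with no count filter (0.067 and 0.0863), of Grn with total-count scaling (0.0612), of Grn, Atp6v0c, Atg7, Atg12, Optn and Nbr1 with limma on log2(FPKM + 1) (0.0526 to 0.206) and of Grn, Atp6v0c, Becn1, Atg7 and Nbr1 with limma on log2(TPM + 1) (0.0784 to 0.312). Leaving out 1 library gave 15 to 19 higher members under UVA. Of the genes named from the wider list, UVA calls were lost without UVA replicate 3 for Npc1 (adjusted p = 0.137), Tpcn2 (0.0502), Dpp7 (0.0796), Gnptab (0.0569), Vps29 (0.0552), Wdr45 (0.238) and Tex264 (0.177), and without UVA replicate 2 for Prcp (0.105), Calcoco1 (0.116), Sesn1 (0.0509) and Tex264 (0.0993). They were lost without UVA replicate 1 for Vmp1 (0.0518) and Zfyve1 (0.0543), and without control replicate 1 for Gga3 (0.0699), Sesn1 (0.0918), Zfyve1 (0.0898), Calcoco1 (0.07), Wdr45 (0.135) and Tex264 (0.0709). Without control replicate 2 those of Creg1 (0.0739), Vmp1 (0.132), Zfyve1 (0.0781), Calcoco1 (0.093), Wdr45 (0.0728) and Tex264 (0.214) were lost, and without control replicate 3 those of Gnptab (0.0748), Vps29 (0.0535) and Wdr45 (0.0679). By method, Tex264 and Wdr45 lost theirs with DESeq2 (0.0589 and 0.0715), with no count filter (0.0841 and 0.0769) and with both limma fits (0.0589 to 0.137), and Tex264 with total-count scaling (0.0629). Both limma fits also ended those of Npc1 (0.121 and 0.189) and Galc (0.071 to 0.14), the log2(FPKM + 1) fit those of Zfyve1 (0.0613) and Calcoco1 (0.0505), and the log2(TPM + 1) fit those of Ncoa4 (0.0614), Vps41 (0.051), Gnptab (0.089) and Vps29 (0.0885). Co-treated against UVA, no member was called in any setting. Equal replicate numbers are not said to pair the libraries, and the deviations of same-numbered libraries correlated at -0.009 to 0.076; between UVA and co-treated libraries all 6 correlated best with their own number, a hint from the data and not the design. With the replicate number as a block, 19 members were higher and 6 lower under UVA, 18 and 7 in co-treated against control, and 0 and 0 in co-treated against UVA cells. Over all 14151 tested genes the block called 2180 higher and 2179 lower under UVA. It called 1968 and 1962 in co-treated against control, and 16 and 3 in co-treated against UVA cells. The block called 4 members that the main test did not: Atp6v1b2 under UVA (adjusted p = 0.043), and Nbr1 (0.0342), Map1lc3a (0.0421) and Ulk1 (0.0403) in co-treated against control cells. Low counts limit Cln3, Optn, Ctsk and Ctss.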
